A study of Mus musculus with 8 samples.

Results

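Metallothioneins are small cysteine-rich proteins that hold zinc and copper ions. The 5 genes described here are the metallothionein genes Mt1, Mt2 and Mt3, the zinc-sensing transcription factor gene Mtf1, and Slc30a1, which encodes a zinc exporter of the plasma membrane. They were found by symbol among 55385 genes of the deposited expression table, and all 5 were present. They were chosen with the difference between the groups already known, so their own iKO against WT values are given as a description with no p-value.

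RNA came from neural stem and progenitor cells (NSPCs) that were isolated by flow sorting of postnatal day 7 mouse cortex. The 4 iKO libraries came from mice with Nestin-CreERT2, a floxed Ash2l allele (Ash2lf/f) and tdTomato, and the 4 WT libraries from mice with Nestin-CreERT2 and tdTomato alone. Both groups thus carried the inducible Cre, which the Nestin promoter drives in neural progenitors, and the reporter. The labels call the 4 libraries of a group biological replicates. Neither the time of induction nor whether a library came from 1 animal is given in the sources used here, so a p-value reflects no more than the spread between them. ASH2L is needed by the MLL and SET1 enzymes for full methylation of histone H3 on lysine 4. Its transcript stood at 7.13 ± 0.714 TPM in iKO libraries and 17.6 ± 1.33 TPM in WT libraries (SD, n = 4), where TPM is an abundance per transcript length in a library scaled to a fixed total, so that the sequencing depth behind each value is unknown.

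In most cells MTF1 binds zinc when free zinc rises, moves to metal response elements upstream of its target genes, and raises transcription of Mt1, Mt2 and Slc30a1. Mt1 and Mt2 are also induced by glucocorticoids and by cytokines that signal through gp130 and STAT3, and in the brain they are found mainly in astrocytes. Mt3 is the brain-enriched member of the family and responds little to metals. Zinc enters the cytosol through transporters of the SLC39 family and leaves it through those of the SLC30 family.

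The metal response element has the core TGCACNC or TGCGCNC, where N is any base. Upstream sequences of 4 members are shown because Mt1, Mt2 and Mt3 were all lower in iKO while Slc30a1 was not. They are the 250 bases before the RefSeq start on GRCm38.p6, all on the plus strand, and capitals mark core matches on either strand. The windows are chr8:94178839-94179088 for Mt1, chr8:94172368-94172617 for Mt2, chr8:94152357-94152606 for Mt3 and chr1:191906531-191906780 for Slc30a1.
Mt1: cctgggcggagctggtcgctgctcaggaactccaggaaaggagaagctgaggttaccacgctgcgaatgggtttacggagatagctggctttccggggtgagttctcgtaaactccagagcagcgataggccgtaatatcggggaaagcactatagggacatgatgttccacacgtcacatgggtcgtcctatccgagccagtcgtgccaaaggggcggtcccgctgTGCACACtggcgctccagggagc
Mt2: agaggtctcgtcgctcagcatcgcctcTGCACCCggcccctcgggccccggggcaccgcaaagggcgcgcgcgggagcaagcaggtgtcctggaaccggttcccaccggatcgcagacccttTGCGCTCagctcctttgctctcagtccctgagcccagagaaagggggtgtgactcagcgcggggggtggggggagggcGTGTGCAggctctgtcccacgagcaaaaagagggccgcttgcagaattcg
Mt3: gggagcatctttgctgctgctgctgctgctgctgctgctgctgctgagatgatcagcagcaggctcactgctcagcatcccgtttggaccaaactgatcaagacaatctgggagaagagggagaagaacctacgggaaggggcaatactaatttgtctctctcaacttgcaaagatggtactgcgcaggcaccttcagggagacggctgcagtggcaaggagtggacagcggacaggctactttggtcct
Slc30a1: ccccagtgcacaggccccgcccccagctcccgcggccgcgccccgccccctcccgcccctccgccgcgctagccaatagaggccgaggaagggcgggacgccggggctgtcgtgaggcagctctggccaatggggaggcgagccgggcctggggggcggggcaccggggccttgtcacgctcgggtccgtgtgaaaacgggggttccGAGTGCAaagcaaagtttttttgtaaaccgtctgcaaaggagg

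The Mt2 window held 3 core matches, which begin 223, 128 and 50 bases upstream of the start. Mt1 and Slc30a1 held 1 each, 23 and 43 bases upstream. The windows of Mt3 and Mtf1 held none. Of 32851 such windows in the table, 21.4% held at least 1 match and 1.26% at least 3. GENCODE M21 places further transcript starts 122 and 152 bases downstream of the start used for Mt1 and 46 and 242 bases downstream for Mt2. Others lie 139 bases downstream for Mt3 and 475 bases downstream for Slc30a1. The bases directly upstream of those starts lie outside these windows, so the match counts hold only for the starts used. A match is a run of letters and not a measured site.

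Metallothionein transcripts were less abundant in iKO, and the 3 genes differed in how much. Mt2 was 21.5 times lower by group means, Mt1 3.06 times lower and Mt3 1.52 times lower. The 2 genes that sense and export zinc did not show this difference, as the groups overlapped for Mtf1 and Slc30a1 was slightly higher in iKO. In sorted bulk samples, fewer cells of a type and less RNA per cell cannot be told apart.

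**Figure D1:**
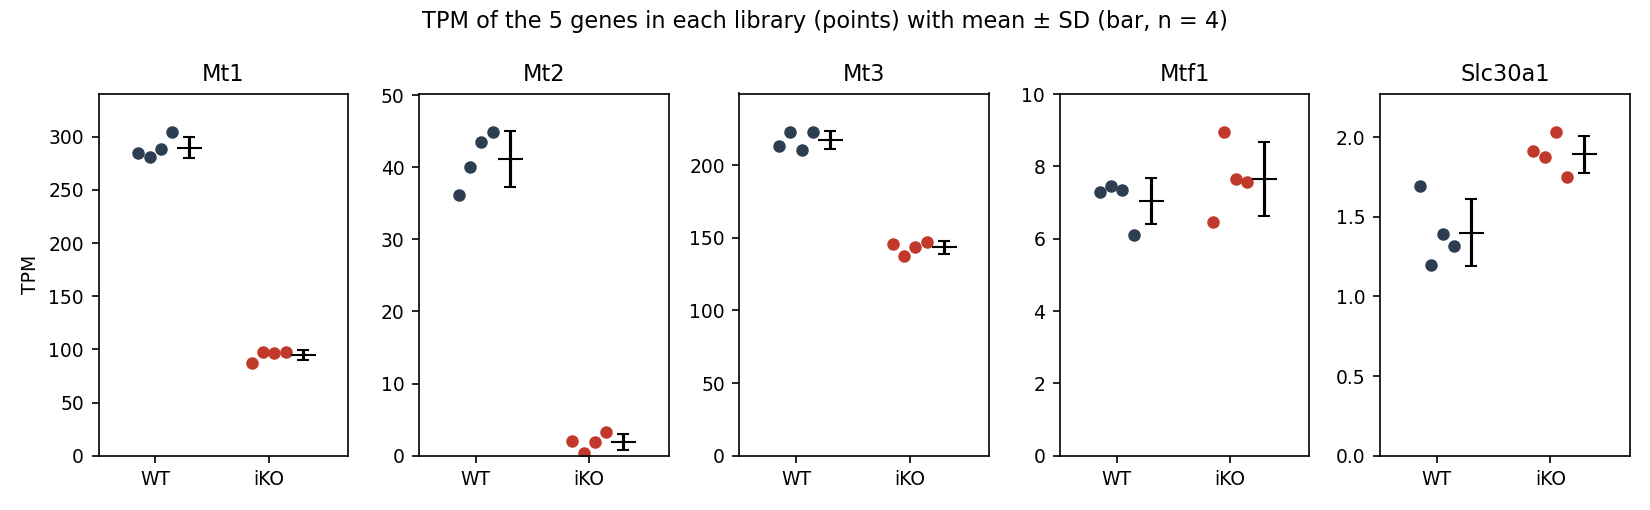
TPM (vertical axes, each from 0) of Mt1, Mt2, Mt3, Mtf1 and Slc30a1 in the 4 WT and 4 iKO libraries. Points are libraries and bars the mean ± SD (n = 4); Mt1, Mt2 and Mt3 are lower in every iKO library than in any WT library, Slc30a1 is higher in every iKO library, and Mtf1 overlaps.

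Mt1 (ENSMUSG00000031765.8) stood at 87.2, 97.2, 96.9 and 97.7 TPM in iKO replicates 1 to 4, and at 284.8, 281.2, 288.8 and 304.2 TPM in WT replicates 1 to 4. The lowest WT library was thus far above the highest iKO library. The means were 94.8 ± 5.05 TPM in iKO libraries and 289.7 ± 10.1 TPM in WT libraries (SD, n = 4), a log2 difference of -1.60 (SE 0.0416) on the log2(TPM + 1) scale. On that scale the median of all 16413 genes tested was -0.06, and 107 of them lay below Mt1. The authors' deposited table, which has the headings of a DESeq2 result, gave Mt1 a log2 fold change of -1.51.

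Mt2 (ENSMUSG00000031762.7) stood at 2.07, 0.42, 1.94 and 3.22 TPM in iKO replicates 1 to 4, against 36.2, 40.1, 43.5 and 44.8 TPM in WT. iKO replicate 2 was the lowest, and no library of one group came near the other group. The log2 difference was -3.95 (SE 0.285), and 11 of all tested genes lay below it. Because the iKO level is low, the value moved with the constant added to TPM, to -4.63 with 0.1 and -2.75 with 5. The authors' deposited table gave -4.25 on a mean normalized signal of 45.7, against 895 for Mt1. Mt2 passed the filter on low values through its WT libraries, since 1 of the 4 iKO libraries was under 1 TPM.

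The Mt2 value also depends on how reads were assigned at its locus. In GENCODE M21, the antisense gene Gm45774 is a single exon of 2665 nt on the opposite strand, and it covers 355 of the 511 nt of the longer Mt2 transcript (69.5%). Smart-Seq2 libraries do not mark strand, so reads in the shared stretch cannot be told apart. Gm45774 stood at 0.767, 0.527, 0.779 and 0.732 TPM in iKO and at 1.94, 1.45, 1.35 and 2.12 TPM in WT, again with no overlap between the groups. Its log2 difference was -0.67 (SE 0.122). It passed the filter on low values only through WT, where it is high, so no p-value is given. Group signals worked out from the mean and fold change in the authors' deposited table were 4.56 in iKO and 86.8 in WT for Mt2, and 16.5 and 39.3 for Gm45774. Gm45774 thus held 78.4% of the pair's signal in iKO and 31.2% in WT. Summed over the pair, the log2 ratio was -2.58 in place of -4.25 for Mt2 alone, so the direction held and the size was smaller.

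Mt3 (ENSMUSG00000031760.9) stood at 145.8, 137.3, 143.4 and 147.2 TPM in iKO replicates 1 to 4, and at 213.4, 222.6, 210.8 and 222.6 TPM in WT. The groups did not overlap, but the distance between them was much smaller than for Mt1. The log2 difference was -0.60 (SE 0.0294), and 8.46% of tested genes lay below it. The authors' deposited table gave -0.47. Mt4, a metallothionein of squamous epithelia and the fourth gene of the cluster, was listed at 0 in all 8 libraries.

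Mtf1 (ENSMUSG00000028890.13) stood at 6.46, 8.94, 7.64 and 7.57 TPM in iKO and at 7.29, 7.45, 7.35 and 6.11 TPM in WT. The highest value was in an iKO library and the lowest in a WT library, but the groups overlap. The log2 difference was 0.10 (SE 0.0969), and the authors' deposited table gave 0.000417. It shares 721 nt, 9.45% of its longest transcript, with the opposite-strand gene 1110065P20Rik, which stood at 9.40 TPM in iKO libraries and 8.44 TPM in WT libraries.

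Slc30a1 (ENSMUSG00000037434.7) encodes ZnT1, the exporter that carries zinc out across the plasma membrane. It stood at 1.91, 1.87, 2.03 and 1.75 TPM in iKO and at 1.69, 1.20, 1.39 and 1.32 TPM in WT. Every iKO library was above every WT library, although the highest WT value, in replicate 1, was only just below the lowest iKO value. The log2 difference was 0.27 (SE 0.0923) and was 0.51 in the authors' deposited table. At these low levels the log2(TPM + 1) scale understates the ratio of the means, which was 1.35.

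The groups did not overlap for 4 of the 5 members, and for 49.2% of all genes tested. Since the members were chosen on this contrast, nothing is read from that count.

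The order of the members by TPM differed between the groups. In WT it was Mt1, Mt3, Mt2, Mtf1 and Slc30a1, with no overlap between neighbours in that order. In iKO, Mt3 stood above Mt1 in every library, followed by Mtf1. The iKO values of Mt2 and Slc30a1 overlapped and could not be ordered. The ratio of Mt1 to Mt3 was 0.661 ± 0.0461 in iKO and 1.33 ± 0.0494 in WT (SD, n = 4). The ratio of Mt1 to Mt2 lay between 6.64 and 7.88 in WT, and between 30.3 and 231.7 in iKO, where the low Mt2 values make it imprecise.

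**Figure D2:**
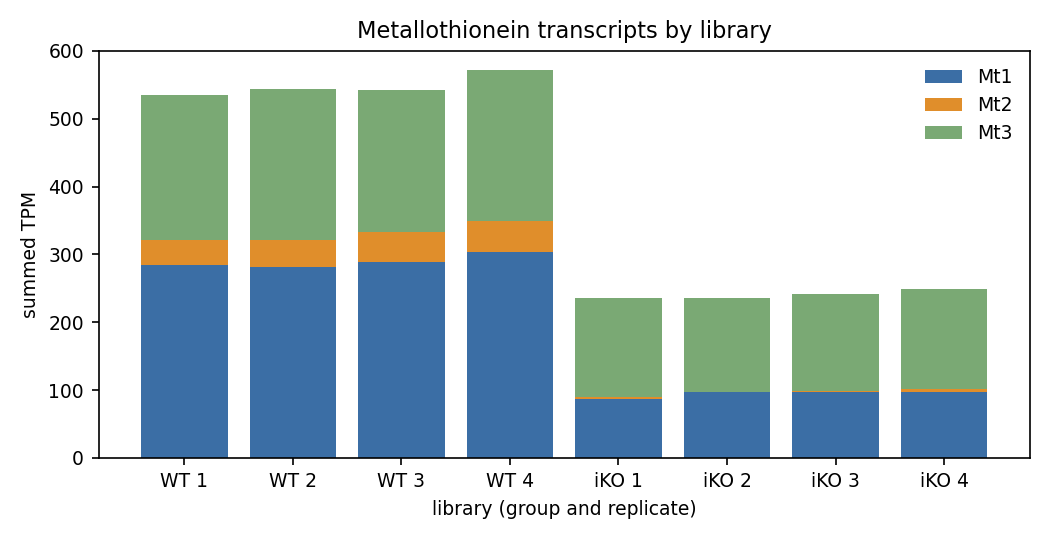
Summed TPM (vertical axis) of Mt1, Mt2 and Mt3 in each of the 8 libraries, stacked by gene. The total lies between 534.4 and 571.6 TPM in WT and between 235.0 and 248.2 TPM in iKO, where the Mt2 layer is barely visible and Mt3 makes up the larger share.

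Together the 3 genes gave 240.1 ± 6.35 TPM in iKO libraries and 548.2 ± 16.2 TPM in WT libraries (SD, n = 4), 2.28 times less in iKO. Mt3 made up 59.7 ± 1.57% of that sum in iKO and 39.7 ± 0.983% in WT. Mt1 made up 39.5 ± 1.79% and 52.8 ± 0.763%, and Mt2 0.79 ± 0.462% and 7.50 ± 0.556% (SD, n = 4). The metallothionein pool was thus not only smaller in iKO but richer in Mt3.

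Astrocyte markers differed between the same libraries. Of 16413 genes tested across the whole table with limma, 52.6% changed at an adjusted p under 0.05, 20.7% higher and 31.9% lower in iKO. Of the called genes 39.3% were higher, against 49.9% with trimmed mean factors. Of 18 astrocyte markers, 1 rose and 16 fell, with a median log2 difference of -0.46. Their summed level lay between 8244 and 8547 TPM in iKO libraries and between 12430 and 12909 TPM in WT libraries. Slc1a3, which encodes an astrocytic carrier of glutamate, fell from 2039 TPM in WT to 1241 TPM. Agt, the angiotensinogen gene, fell the most of the list, from 726 to 62.8 TPM, which is 11.6 times lower. Ndrg2 fell from 931.5 to 535.4 TPM and Mlc1 from 1018 to 690.7 TPM. The next 3 genes were named after their values were seen. Gjb6, a gap junction gene, fell from 118.9 to 30.7 TPM, 3.87 times lower, S100b rose from 8.61 to 10.8 TPM, and Aldh1l1 (233.6 TPM in iKO, 239.1 TPM in WT) did not pass. By group means, Agt and Gjb6 were thus lower by more than the 3.06 times of Mt1. Cst3, also named after its value was seen, came next at 1.77 times, so Mt1 fell further than every other marker listed. Mt2, at 21.5 times, fell further than Agt. In the authors' deposited table, Mt2 with Gm45774 added gave -2.58, a smaller drop than the -3.47 of Agt.

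The metallothioneins were also set against the summed astrocyte markers, a sum that the more abundant markers dominate. Mt3 stood at 17.0 ± 0.61 TPM per 1000 TPM of markers in iKO and 17.3 ± 0.463 in WT (SD, n = 4), and the groups overlapped. Mt1 stood at 11.2 ± 0.432 in iKO and 23.0 ± 0.41 in WT, 2.05 times lower. Mt2 stood at 0.226 ± 0.135 in iKO and 3.27 ± 0.274 in WT, 14.4 times lower. For Mt1 and Mt2 the groups did not overlap on this measure. The part of astrocyte content in the 3 differences was not tested, and the ratio carries no test because its members were chosen with their values known.

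**Figure D3:**
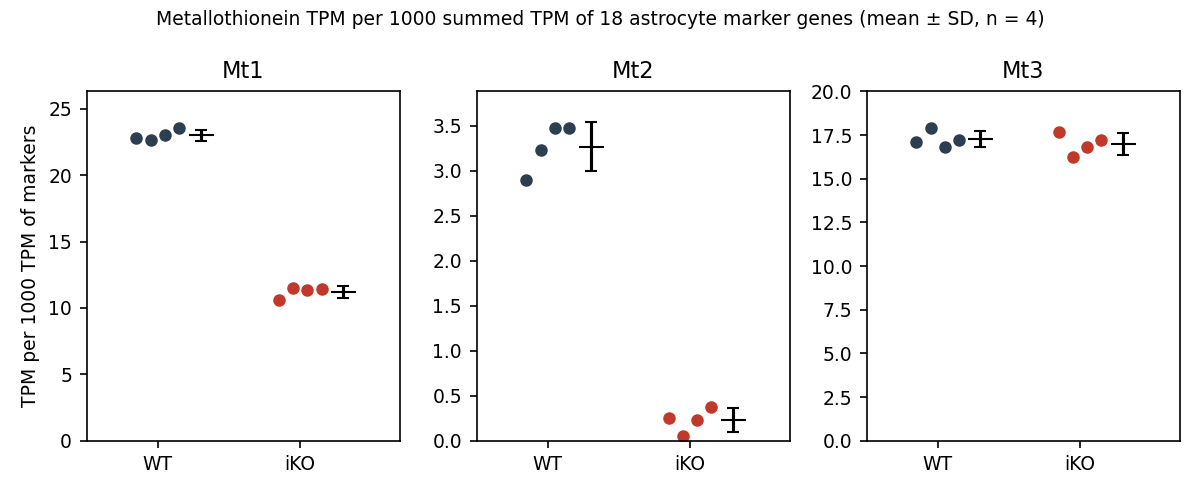
Metallothionein TPM per 1000 summed TPM of 18 astrocyte marker genes (vertical axes, each from 0) in the 4 WT and 4 iKO libraries. Points are libraries and bars the mean ± SD (n = 4); Mt1 and Mt2 remain lower in iKO on this measure and Mt3 overlaps between the groups.

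Markers of other cell types were read beside the 20.7% higher and 31.9% lower over all genes tested. Nothing is read from a list whose counts are near those shares. All 10 endothelial markers rose (median log2 difference 0.66, summed 897 to 957 TPM in iKO libraries and 509 to 521 TPM in WT libraries), and 7 of 8 blood cell markers rose with none lower (summed 731 to 849.8 TPM and 74.0 to 85.9 TPM). Of the blood cell markers Hbb-bt, Alas2 and S100a9 passed the filter through iKO, since each was under 1 TPM in at least 1 WT library. Of 10 microglia and macrophage markers, 1 rose and 8 fell (summed 578 to 594 TPM and 707 to 762 TPM). Of 12 tested progenitor markers, 3 rose and 3 fell (summed 2140 to 2170 TPM and 1910 to 1930 TPM), and more were called higher under other settings, 5 with trimmed mean factors or quantile normalization and 7 in the authors' deposited table. Among progenitor markers Fabp7, a radial glia gene, rose from 664 to 925 TPM and Tnc rose from 27.9 to 32.0 TPM, whereas Prom1 fell from 67.0 to 41.4 TPM and Vim from 281.9 to 240.4 TPM. Of 9 tested neuronal markers 4 rose and 3 fell, of 7 oligodendrocyte lineage markers 2 rose and 4 fell, and of 7 meningeal fibroblast markers 2 rose and 4 fell. Pericyte markers split evenly (3 rose and 3 fell of 7), and of 7 ependymal and choroid plexus markers 1 rose and 3 fell. No defining marker of these 9 lists was at 0 in all libraries. The part of these cells in the metallothionein differences was not tested. The score of Y-linked genes against Xist lay between -0.82 and -0.26 in iKO and between 0.57 and 1.01 in WT, so sex composition and genotype cannot be told apart. With that score in the model the log2 difference of Mt2 was -1.38, that of Mt1 -1.52, that of Mt3 -0.375, that of Mtf1 -0.385 and that of Slc30a1 -0.17. Only 423 genes were then called over the whole table, and none of them was a zinc transporter.

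Importer genes, whose products carry zinc into the cytosol, changed in both directions. Of 14 SLC39 importer genes, 11 were tested: 2 rose and 6 fell, 3 missed the threshold, and the median log2 difference was -0.10. Of 9 SLC30 genes other than Slc30a1, 7 were tested, 2 were called higher and none lower, 5 missed the threshold, and the median was 0.16. Of the 2 called higher, Slc30a3 entered the test only through its iKO libraries and Slc30a7 lost its call without single WT libraries, as given below, so the count supports no direction. The background was 20.7% of tested genes higher and 31.9% lower. In the authors' deposited table, 3 of these SLC30 genes were called higher, Slc30a3 among them, and 0 lower. Over that whole table, 5042 of 29438 genes with a fold change were called higher and 4927 lower.

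**Figure D4:**
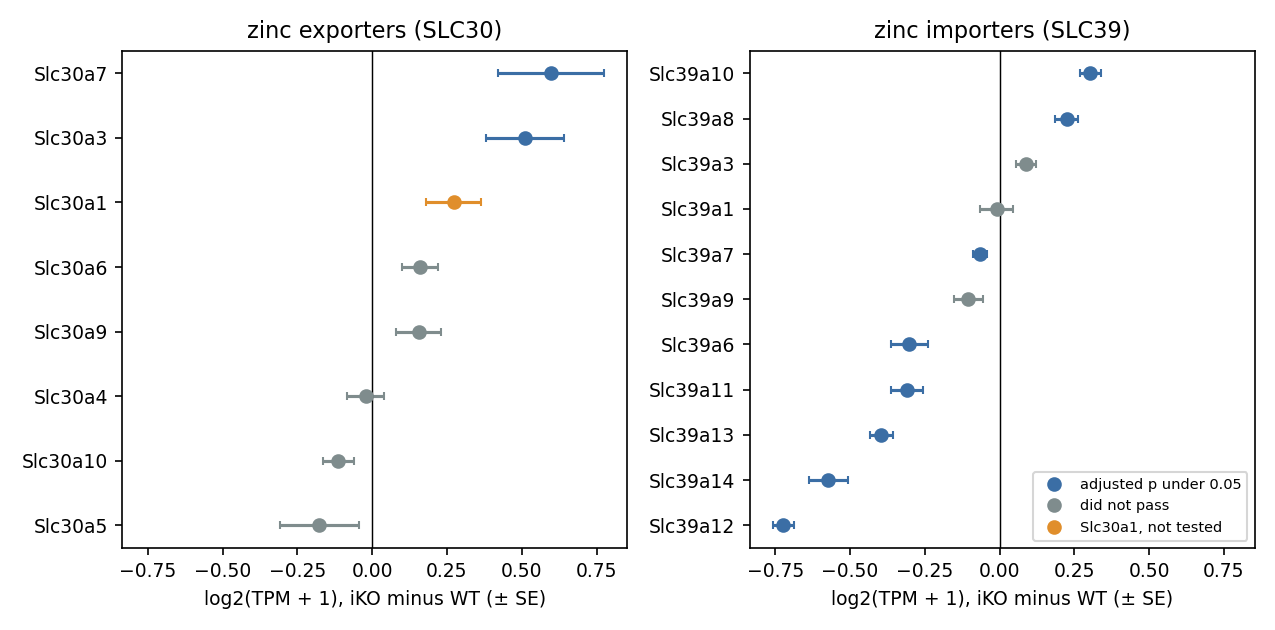
Differences of log2(TPM + 1) between iKO and WT (horizontal axis, ± SE) for tested zinc exporter genes (left) and importer genes (right). Blue marks genes that passed limma's adjusted test, grey those that did not, and orange Slc30a1. Slc30a1 is labelled as not tested because, although it was in the fit, no p-value is given for a member. Slc39a12 lies lowest at -0.72 and Slc30a7 highest at 0.60.

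Slc39a12, an importer gene prominent in astrocytes, fell the furthest of the tested SLC39 genes, from a WT mean of 111.7 ± 4.96 TPM to an iKO mean of 67.2 ± 1.54 TPM (SD, n = 4; log2 difference -0.72, SE 0.0356, limma adjusted p = 6.54e-07). Slc39a14, which also carries iron and manganese, fell from 50.9 to 33.8 TPM (log2 difference -0.57). Slc39a13, a transporter of the early secretory pathway, fell from 43.5 to 32.8 TPM. Slc39a11 fell too, to 47.5 TPM from 59.1 TPM. Slc39a6 fell from 165.7 to 134.0 TPM. In each of these 5 genes the groups did not overlap.

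Slc39a7, which releases zinc from the endoplasmic reticulum and was the most abundant of the family, stood at 363.9 TPM in iKO libraries and 380.8 TPM in WT libraries. Its groups overlapped. The log2 difference was -0.065 (limma adjusted p = 0.0379), and with trimmed mean factors it was -0.001 (limma adjusted p = 0.97). The call was also lost without iKO replicate 1, 2 or 3 (limma adjusted p = 0.0579, 0.0934 and 0.0917) and without WT replicate 1 or 2 (0.0871 and 0.0919).

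Slc39a10 rose from a WT mean of 48.7 ± 2.09 TPM to an iKO mean of 60.3 ± 0.667 TPM (SD, n = 4; log2 difference 0.30, SE 0.0356, limma adjusted p = 0.00012). It is the importer gene that zinc-loaded MTF1 is known to hold down. Slc39a8 rose from 44.7 to 52.3 TPM. Slc39a1 (17.1 TPM in iKO libraries and 17.2 TPM in WT libraries) and Slc39a9 (40.2 and 43.2 TPM) did not pass. Slc39a3 stood at 47.0 and 44.1 TPM, with an adjusted p of 0.0505 by limma. Below the filter for low levels were Slc39a2 (0.94 and 0.798 TPM), Slc39a4 (0.651 and 1.42 TPM) and Slc39a5 (0.045 and 0.0999 TPM). Of these 3, Slc39a4 alone did not overlap between the groups, and only narrowly.

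Among the exporters, Slc30a3, the gene of the synaptic vesicle zinc transporter, stood at 1.34 to 2.18 TPM in iKO and at 0.561 to 0.947 TPM in WT (log2 difference 0.51, SE 0.131). It passed the filter on low values only through iKO, where it is high, so its call carries no weight and no p-value is given. Slc30a7, a transporter of the Golgi, stood at 36.1 ± 8.34 TPM in iKO libraries and 23.4 ± 5.17 TPM in WT libraries (SD, n = 4), a wide spread with overlapping groups. It passed limma's test at a log2 difference of 0.60 (adjusted p = 0.0194), a call lost without WT replicate 1 (adjusted p = 0.0508) or WT replicate 3 (adjusted p = 0.0501). The authors' deposited table gave Slc30a7 a log2 fold change of -0.01, with the opposite sign.

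Of the other exporter genes, none passed limma's test in the main fit. Slc30a6 stood at 29.1 TPM in iKO libraries and 25.9 TPM in WT libraries, and Slc30a9 at 47.9 and 42.9 TPM. Slc30a4 stood at 6.83 and 6.95 TPM, Slc30a5 at 16.6 and 18.8 TPM, and Slc30a10 at 20.1 and 21.8 TPM. With trimmed mean factors Slc30a6 (log2 difference 0.22, limma adjusted p = 0.0118) and Slc30a9 (0.22, adjusted p = 0.0327) passed too, so 4 exporter genes were called higher. The authors' deposited table also called both higher, with log2 fold changes of 0.37 for Slc30a6 and 0.21 for Slc30a9. Slc30a8 was listed at 0 in all 8 libraries, and Slc30a2 was listed at 0 in WT and stood at 0.0781 TPM in iKO.

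Besides Mt1, Mt2 and Slc30a1, 8 genes reported elsewhere as MTF1 targets were looked at. Of 7 tested, 3 rose and 2 fell, with a median log2 difference of 0.20, beside 20.7% higher and 31.9% lower over all genes tested. Selenow, which encodes a small selenoprotein, rose from 914 to 1614 TPM (log2 difference 0.82). The iron exporter gene Slc40a1 rose from 19.8 to 35.6 TPM. Csrp1, a LIM domain protein gene, fell from 191 to 129 TPM. The other gene that rose was Slc39a10, given above as one that MTF1 holds down and counted among the importers too. The count of targets that rose thus includes a repressed target. The other that fell was Gclc, the catalytic subunit gene of glutathione synthesis, from 6.58 to 4.98 TPM, which the naming rule did not select.

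Metallothioneins also buffer copper. Of 14 tested genes of copper handling, 3 rose and 6 fell, with a median log2 difference of -0.03. These shares are near those over all genes tested (20.7% higher and 31.9% lower), and nothing is read from them about copper genes. Cp, the ceruloplasmin gene, an astrocyte-expressed copper oxidase, fell from 33.2 to 8.85 TPM (log2 difference -1.82). Sod1, copper and zinc superoxide dismutase, fell from 54.8 to 23.2 TPM, and the authors' deposited table gave a smaller log2 fold change of -0.50 against -1.21 here. Commd1 rose from 229 to 408 TPM, and Sco1, a copper chaperone gene of cytochrome c oxidase, rose from 18.9 to 23.3 TPM.

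Glucocorticoid and cytokine pathways, the other known inducers of Mt1 and Mt2, were looked at with the same fit. Of 11 tested glucocorticoid response genes, 1 rose and 10 fell, with a median log2 difference of -0.50, beside 20.7% higher and 31.9% lower over all genes tested. The gene that rose, Errfi1, named after its value was seen, stood at 23.2 TPM in iKO against 21.3 TPM in WT. That call was lost with the replicate block, with no filter, and without iKO replicate 1, 3 or 4 or WT replicate 1, 3 or 4, each leaving 0 higher. Among those that fell, Hif3a passed the filter through its WT libraries, since 2 iKO libraries were under 1 TPM. Fkbp5, a chaperone of the glucocorticoid receptor, fell from 29.6 to 8.31 TPM and Tsc22d3 from 295.5 to 141.6 TPM. Of 11 tested genes of the gp130 and STAT3 pathway, 1 rose and 7 fell, with a median of -0.26, beside the same shares over all genes. With trimmed mean factors 2 rose. The receptor genes Lifr and Osmr stood at 16.9 and 6.16 TPM in iKO, down from 33.5 and 10.0 TPM, and Stat3 fell from 152.6 to 121.8 TPM. Gfap, which is a STAT3 target and an astrocyte gene, fell from 898 to 749 TPM.

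Mt4, Mt3, Mt2 and Mt1 lie side by side within 43131 bases of 1 chromosome in GENCODE M21. Some protein-coding genes within 250 kb on either side are given here, picked with values in view. Nudt21, which encodes a subunit of an mRNA cleavage factor, rose from 146.3 to 180.5 TPM. Bbs2 and Nup93, the nearest on the 2 sides, stood at 20.5 and 60.9 TPM in iKO libraries and at 25.3 and 66.9 TPM in WT libraries and did not pass (limma adjusted p = 0.0595 and 0.0521).

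Profiles of log2(TPM + 1), each centred on its own mean over the 8 libraries, were compared by their root mean square distance. They were set against 10899 tested genes with a group mean of at least 5 TPM. Predicted genes, pseudogenes, clone names and the members were left out of these 10899. Nearest to Mt1 were Folh1 (distance 0.0883), Malat1 (0.0941), Plekhf1 (0.101) and Crip3 (0.102). Nearest to Mt2 were Atp5k (0.420), Agt (0.444), Tmem144 (0.542) and Kcnt1 (0.555). Nearest to Mt3 were Igtp (0.0209), Cbs (0.0289), Grina (0.031) and Pstpip2 (0.0314). Each distance includes the group difference itself. The member closest to Mt2 was Mt1, at a distance of 1.25, and the one closest to Mt1 was Mt3, at 0.508. The member closest to Mt3 was Mtf1, at 0.381.

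**Figure D5:**
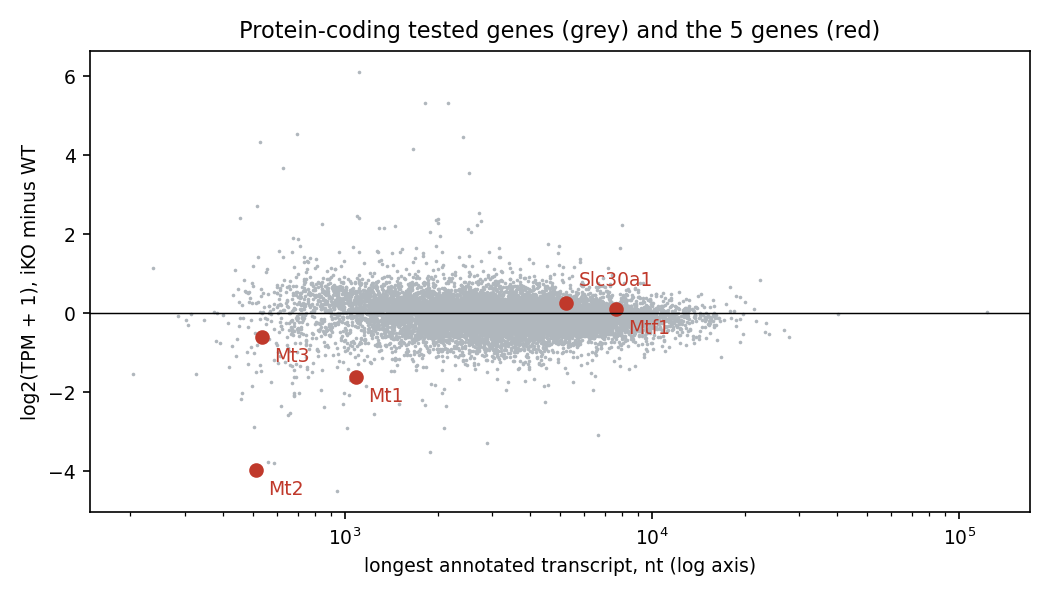
Log2 difference between iKO and WT (vertical axis) against the longest annotated transcript in nt (horizontal log axis) for protein-coding tested genes (grey) and the 5 members (red). Mt1 and Mt2 lie below the mass of genes of their length, Mt3 on its lower side with 110 of 744 short genes below it, and Mtf1 and Slc30a1 among the long genes near 0.

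The longest annotated transcripts were 1085 nt for Mt1, 511 nt for Mt2 and 536 nt for Mt3, short enough for TPM to depend on the length model used. Protein-coding tested genes of 400 to 1100 nt numbered 744 and had a median log2 difference of 0.19, against -0.055 for all 13617 protein-coding genes tested. Of these short genes 43.0% rose and 21.8% fell, and the 3 metallothioneins were lower. Among them 26 lay below Mt1, 1 below Mt2 and 110 below Mt3. Removing the length trend left the log2 differences at -1.62 for Mt1, -3.88 for Mt2 and -0.53 for Mt3.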

How the data were processed

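Per the labels' protocols, RNA was amplified by Smart-Seq2, which does not mark strand, and sequenced as paired ends. The authors deposited TPM values, scaled so that each library sums to 1000000. A second table holds the authors' iKO against WT comparison, per the file headers a mean normalized signal, the log2 fold change and its error, the test's score, and raw and adjusted p-value columns. Aligner, quantifier and build: not given in the sources used here. Depth cannot be read from TPM, so no counting interval is given.

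Log2(TPM + 1) was fitted with limma 3.58.1 (R 4.3.3; trend and robust options) over 16413 genes with at least 1 TPM in at least 4 of 8 libraries. Tests are two-sided with Benjamini-Hochberg adjustment, called under 0.05. Trimmed mean of M values factors were computed directly on TPM. The fit was also run on simulated independent libraries in which few genes changed, unlike these data. Nothing is read from that run about the calls here. Alternatives changed the pseudocount, filter, scaling, covariates, weights, length trend, libraries or source table.

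The members and gene lists were chosen with earlier results of these data known. All SLC30 and SLC39 genes are named, up to 4 genes of each other list by smallest unadjusted p, and 4 genes per metallothionein by likeness; exceptions are stated. The sum of Mt2 and Gm45774, the neighbours and the length range were chosen after values were seen. Not all neighbours are reported here. Annotation was GENCODE M21 and promoter sequences came from RefSeq on GRCm38.p6, with a window for 5 of 5 members. blastn 2.17.0 found Mt1 and Mt2 transcripts 79.2% identical over 192 nt, and no copy of Mt1, Mt2 or Mt3 that reached 80% identity across 50% of the shorter sequence.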

Additional observations from a re-analysis of the deposited data

Results flagged for a closer look

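In 57 groups of 4 libraries, 6 had 1 library standing far from the other 3, its gap to them being past Dixon's critical share of the range. Chance alone flags about 1 in 20 groups. Mt1 stood at 87.21 TPM in iKO replicate 1, with the other iKO libraries between 96.91 and 97.72 TPM. Mtf1 stood at 6.106 TPM in WT replicate 4, with the others between 7.294 and 7.451 TPM.

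Among the transporters, Slc30a7 stood at 31.16 TPM in WT replicate 2, against 20.73 to 20.99 TPM in the other WT libraries. Slc30a3 stood at 2.176 TPM in iKO replicate 4, against 1.343 to 1.463 TPM. Slc30a2 stood at 0.1294 TPM in iKO replicate 3, against 0.05341 to 0.06497 TPM. Slc39a5 was listed at 0 TPM in iKO replicate 1, against 0.05967 to 0.06031 TPM.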

How the results depend on the processing

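Mt1, Mt2 and Mt3 were lower in iKO under every alternative run. Log2 differences ranged from -1.77 to -1.51 for Mt1, from -4.63 to -1.38 for Mt2 and from -0.64 to -0.38 for Mt3. Mt1 was -1.52 with the sex score and -1.51 in the authors' deposited table, and Mt1 and Mt2 summed gave -1.765. Mt2 was -4.63 with pseudocount 0.1, -2.75 with pseudocount 5, -1.38 with the sex score and -2.58 with Gm45774 added. Mt3 was -0.53 with trimmed mean factors, -0.64 with quantile normalization, -0.375 with the sex score, -0.53 with the length trend removed and -0.47 in the authors' deposited table. Slc30a1 was 0.42 and 0.11 with pseudocounts 0.1 and 5, 0.38 with quantile normalization, 0.37 with the length trend removed, 0.51 in the authors' deposited table and -0.17 with the sex score. Mtf1 was -0.385 with the sex score.

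With the sex score, 423 genes were called, 195 higher and 228 lower, and no zinc exporter or importer was called (0 higher, 0 lower). That score separates the groups completely, so this fit has little left to estimate the group difference. Exporters higher numbered 4 with trimmed mean factors and 4 with the length trend removed. Leaving out 1 library at a time gave 7942 to 8216 genes called (3105 to 3231 higher, 4819 to 5041 lower), 1 to 3 exporters higher and 0 to 1 lower, 2 to 3 importers higher and 5 to 6 lower. The members then ranged from -1.62 to -1.56 (Mt1), -4.17 to -3.64 (Mt2), -0.61 to -0.58 (Mt3), 0.03 to 0.17 (Mtf1) and 0.23 to 0.33 (Slc30a1).

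Signs turned for Slc30a7 (-0.01) and Gnao1 (0.156) in the authors' deposited table, for Slc39a7 (0.008) and Gnao1 (0.083) with the length trend removed, and for Cspg4 (0.101) and Hbb-bt (-0.533) with the sex score. The cause was not tested. Of called genes, 39.3% were higher, against 49.9% with trimmed mean factors, 49.7% with quantile normalization and 53.2% with the length trend removed, where the median of all genes was -0.004, 0.005 and 0.018 in place of -0.061.

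Same-numbered libraries did not deviate together (r = -0.029, -0.044, -0.041 and 0.001). These values gave no sign that the numbers pair the samples, though a weak pairing could be missed. With the replicate block, 8097 genes were called, 3170 higher and 4927 lower; Slc39a7 was lost (limma adjusted p = 0.0659) and Slc30a6 gained (0.0486).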
